A study of Mus musculus with 11 samples.

Results

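The 9 genes described here act at the cell surface end of Wnt/β-catenin signalling: the ligand genes Wnt2 and Wnt9b, the agonist gene Rspo3, the Frizzled receptor genes Fzd4, Fzd5, Fzd7 and Fzd8, and the co-receptor genes Lrp5 and Lrp6. They were taken by symbol from a deposited table of 43346 genes, and each of the 9 symbols was found as 1 gene. The libraries were made from liver RNA of FVB/NJ mice, an inbred strain, with hepatocellular carcinoma (HCC) induced by expressing MET and β-catenin, so every library below comes from that model. Responders (6 libraries) and non-responders (4 libraries) were mice given anti-PD-1, an antibody against the PD-1 checkpoint receptor, and 1 further library is labelled as non treatment although its treatment label also names anti-PD-1. The series as deposited concerns anti-PD-1 alone, within a study of whether targeting β-catenin changes the response to that antibody. The labels used here do not say how response was scored, which piece of liver was taken, or whether libraries came from separate mice, so p-values measure only the spread between these libraries.

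Wnt proteins are secreted lipid-modified ligands that bind a Frizzled receptor together with LRP5 or LRP6, which leads to accumulation of β-catenin and transcription through TCF/LEF factors. R-spondins bind LGR receptors and hold the ubiquitin ligases RNF43 and ZNRF3 away from Frizzled proteins, so that more receptor stays at the surface. In mouse liver, Wnt2, Wnt9b and Rspo3 are known as products of endothelial cells near the central vein, and their signal maintains the perivenous programme of hepatocytes. β-catenin acts downstream of all the proteins described here.

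Total gene counts ran from 17876515 to 40565708 over responder libraries and from 25542066 to 39941835 over non-responder libraries; the untreated library had 49884800. Hepatocyte markers were high throughout, with a summed level over 10 genes of 84922 to 100533 CPM (counts relative to the library's total, scaled by the trimmed mean of M-values) in responders, 116566 to 142272 CPM in non-responders and 89313 CPM in the untreated library, so the groups did not overlap in this sum. A sum over 5 fetal and tumour markers also did not overlap, at 2.19 to 240.2 CPM in responders and 306 to 865 CPM in non-responders, with 3.40 CPM in the untreated library. Non-responder replicate 1 stood apart: it had the lowest sums for sinusoidal endothelial (371 CPM) and Kupffer cell (39.1 CPM) markers of the 10 treated libraries, and its reads of Lrp5, Lrp6, Fzd5, Rspo3 and Wnt2, though not of Fzd4, lay more toward the 3′ ends of the transcripts than in the other treated libraries. The listed Fzd4 gene ends before its 3′ end in the GENCODE annotation, so a shift past that point would not be seen. The numbers in the sample titles also ran mostly with the groups, from 1 to 29 in responders and from 26 to 37 in non-responders; the labels used here leave their meaning unsaid. What these differences contribute to the results was not tested.

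All 9 genes passed the filter on low counts. Of them, 2 were higher in responders (Fzd5 and Fzd7), 1 was lower (Lrp5) and 6 did not pass an adjusted p of 0.05 in edgeR's quasi-likelihood test with Benjamini-Hochberg adjustment over 17610 genes. Over all genes tested 9.93% passed, 4.11% as higher and 5.82% as lower, to be set against 3 of these 9. The log2 fold change of responders over non-responders was positive for 8 of the 9, all but Lrp5, with a median of 0.48, while 48.1% of all tested genes had a positive value and their median was -0.02. An unadjusted p under 0.05 was reached by 6 of the 9, against a background of 27.3%. The CPM ranges of the groups did not overlap for 2 of the 9, against 11.3% of all genes. In both every responder was higher, as in 5.6% of all genes, and none of the 9 had every responder lower, as 5.66% of all genes did.

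**Figure D1:**
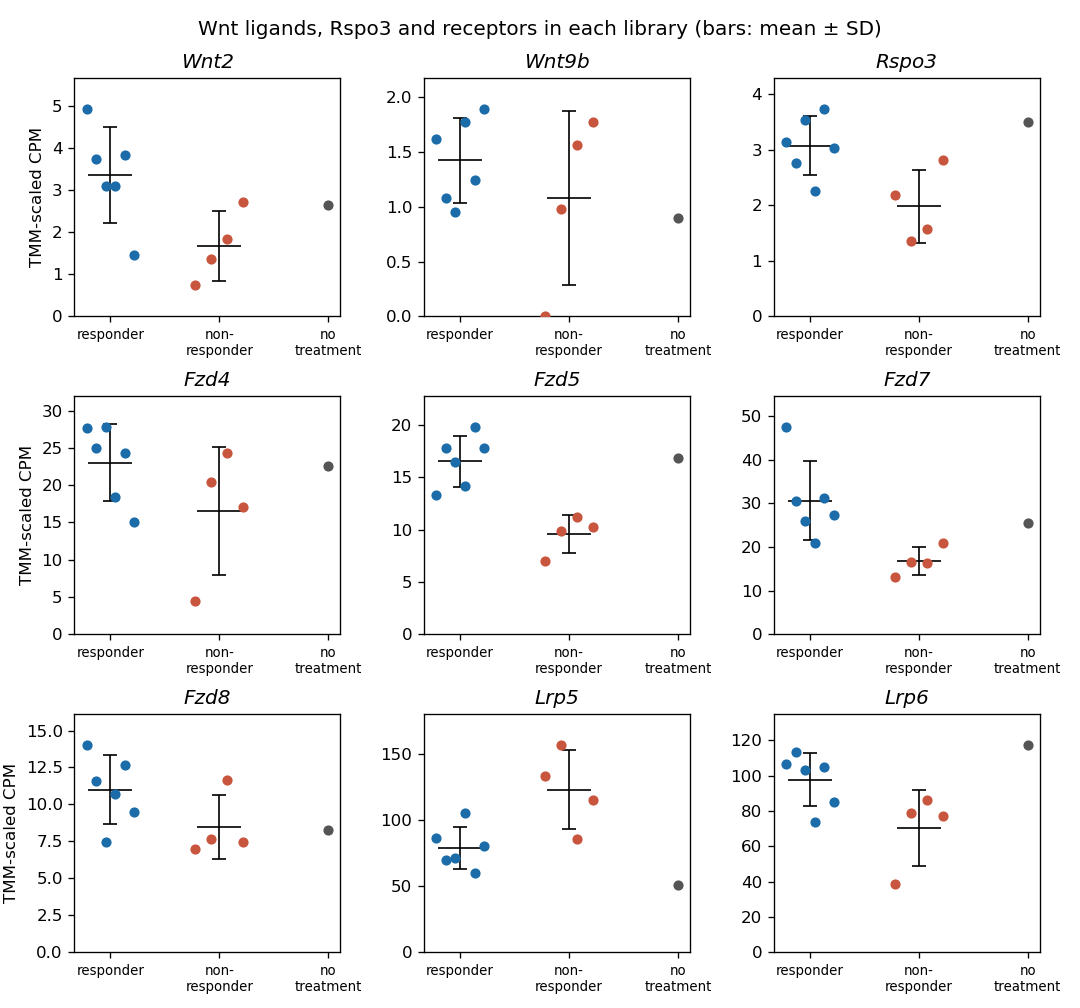
Normalised read counts (CPM, scaled by the trimmed mean of M-values) of the 9 genes in responder, non-responder and untreated libraries; each point is a library and bars give mean ± SD. Fzd5 and Fzd7 have no overlap between responders and non-responders, and Lrp5 is the gene with the lower mean in responders.

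Compared per length, the co-receptors were the most abundant of the 9 and Wnt9b the least. Over the 10 treated libraries Lrp5 averaged 6.91 ± 2.52 RPKM (the deposited count per length and library size; SD, n = 10) and Lrp6 6.05 ± 1.41 RPKM. Fzd4 and Fzd7 followed at 3.79 ± 1.30 and 3.74 ± 1.24 RPKM, then Fzd8 at 2.03 ± 0.40 RPKM and Fzd5 at 1.36 ± 0.40 RPKM. Wnt2 and Rspo3 lay at 0.81 ± 0.37 and 0.76 ± 0.23 RPKM, and Wnt9b at 0.19 ± 0.08 RPKM. In this order Lrp5 and Lrp6, Fzd4 and Fzd7, and Wnt2 and Rspo3 are neighbours that differ by less than their spread. The co-receptors changed places with the group: Lrp5 averaged 5.48 RPKM in responders and 9.07 RPKM in non-responders, and Lrp6 averaged 6.72 RPKM in responders and 5.04 RPKM in non-responders.

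Wnt2, a ligand that drives hepatocyte growth signals from the endothelium in mouse liver regeneration, was the most abundant of the 19 Wnt genes by mean RPKM over the treated libraries, at 1.001 RPKM in responders and 0.518 RPKM in non-responders, where Wnt5a (0.639 RPKM) was above it. It lies at chr6:17988940-18030585 on the minus strand (build mm10, as are the other gene positions). Its level was 1.46, 3.43 and 4.92 CPM in responders (lowest, median and highest), against 0.74, 1.36, 1.85 and 2.72 CPM in the non-responders and 2.64 CPM in the untreated library. Most responders lay above every non-responder, but responder replicate 6 was as low as the middle of the other group, so the groups overlapped. The mean was 3.36 ± 1.14 CPM in responders (SD, n = 6) and 1.67 ± 0.84 CPM in non-responders (SD, n = 4), resting on 623 and 251 reads in all. On the log2 scale this was a fold change of 0.997 ± 0.376 (SE), which missed the threshold in edgeR (adjusted p = 0.111, unadjusted 0.0215). DESeq2, run as an alternative, gave an adjusted p of 0.0469.

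Wnt9b, the other ligand credited to central vein endothelium, was sixth among the Wnt genes per length and lies at chr11:103727364-103749821 (minus strand). Responders had 0.95, 1.43 and 1.89 CPM (lowest, median and highest), non-responders 0, 0.98, 1.57 and 1.77 CPM, and the untreated library 0.90 CPM. The 0 belongs to non-responder replicate 1, where a count of 0 allows up to 0.111 CPM (3 reads), and the other 3 non-responders lay within the responder range. The fold change, 0.37 ± 0.62 (SE) in log2, missed the threshold in edgeR (adjusted p = 0.742), and without that library it was -0.026 (adjusted p = 0.962).

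Rspo3, the R-spondin of the central vein (chr10:29453109-29535867, minus strand), carried nearly all R-spondin reads: Rspo1 averaged 0.04 RPKM in treated libraries, and Rspo2 and Rspo4 had 0 reads in all 11 libraries. Responders had 2.25, 3.09 and 3.73 CPM of Rspo3 (lowest, median and highest), against 1.36, 1.57, 2.18 and 2.82 CPM in non-responders and 3.50 CPM in the untreated library. Non-responder replicates 1, 2 and 3 were below every responder, and replicate 4 lay among the responders. The mean was 3.08 ± 0.53 CPM in responders (n = 6) and 1.98 ± 0.66 CPM in non-responders (n = 4), on 611 and 283 reads. The fold change of 0.64 ± 0.24 (log2, SE) missed the threshold in edgeR (adjusted p = 0.108), passed without non-responder replicate 4 (0.0477), and had an adjusted p of 0.0490 in DESeq2. In the GENCODE annotation 13.1% of the exon bases of Rspo3 are shared with an antisense gene on the other strand, Gm48159, and the labels used here do not say whether the counting used strand, so reads from that stretch cannot be told apart.

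Because these ligands are known as endothelial products, their levels were also set against a sum of 18 sinusoidal endothelial markers. That sum was 623 to 1074 CPM in responders, 371 to 837 CPM in non-responders (687 to 837 CPM without replicate 1) and 922 CPM in the untreated library. No marker was at 0 throughout; 16 of the 18 had a positive log2 fold change, 1 passed as higher (Bmp2, log2 fold change 1.05 ± 0.28, adjusted p = 0.0389 in edgeR) and 1 as lower (Lyve1, -1.44 ± 0.24, adjusted p = 0.0149). In bulk RNA, fewer cells of a type and less RNA per cell cannot be told apart.

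Relative to these markers, Wnt2 was higher by 0.54 on the log2 scale in responders, at -8.15 ± 0.38 (SD, n = 6), than in non-responders, at -8.69 ± 0.35 (n = 4), and the difference did not pass a two-sided exact permutation test (p = 0.0571, adjusted over the 3 ligands 0.171; the smallest p that 210 permutations allow is 0.00952). The ratio for Wnt9b was -9.32 ± 0.63 in responders and -10.01 ± 1.92 in non-responders (exact permutation p = 0.581, adjusted 0.676), and the difference of 0.68 became -0.265 without non-responder replicate 1. For Rspo3 it was -8.21 ± 0.35 in responders and -8.36 ± 0.77 in non-responders, a difference of 0.15 (exact permutation p = 0.676, adjusted 0.676). Single libraries decided the Rspo3 value, which was 0.475 without non-responder replicate 1, -0.0412 without replicate 2 and -0.0707 without replicate 3. The choice of denominator changed the call: against Pecam1 alone, an endothelial adhesion gene, the differences were 1.35 for Wnt2 and 0.96 for Rspo3, each with an adjusted exact permutation p of 0.0429. Against the vascular endothelial list they were 1.33 and 0.94 and missed the threshold (adjusted exact permutation p = 0.0571 each), and against the stellate list 1.30 and 0.91 (0.0429 each). The Pecam1 differences exceed the log2 fold changes of Wnt2 (0.997) and Rspo3 (0.64) themselves, because Pecam1 was lower on average in responders. It thus went against most of the 18 sinusoidal markers, of which 16 had positive values.

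Markers of other vascular and mesenchymal cells were measured too. The sum of 9 vascular endothelial markers was 55.7 to 68.1 CPM in responders and 56.5 to 90.7 CPM in non-responders (49.8 CPM in the untreated library), with 1 of 9 lower in responders in edgeR (Cd34, log2 fold change -0.93 ± 0.24, adjusted p = 0.0362), none higher and a list median of -0.29. The sum of 13 stellate cell markers was 366 to 534 CPM in responders, 388 to 550.02 CPM in non-responders and 419 CPM in the untreated library. Of these 13, 3 passed as higher in edgeR and none as lower, among them Ngfr (1.37 ± 0.32, adjusted p = 0.0268) and Hgf, which encodes the ligand of MET (1.06 ± 0.25, adjusted p = 0.0271). The list as a whole had 6 of 13 positive values and a median of -0.01, and Col1a1 (-2.21 ± 0.73, adjusted p = 0.0806) and Acta2 (-2.23 ± 0.77, adjusted p = 0.0904), a collagen and a smooth muscle actin gene, had the most negative ones. No vascular or stellate marker was at 0 throughout, and the part of these cells in the ligand values was not tested.

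The members carried most of the Frizzled signal. Fzd4, Fzd5, Fzd7 and Fzd8 together made up 84.2% to 90.3% of the summed RPKM of 10 Frizzled genes in responders, 75.4% to 83.0% in non-responders and 84.0% in the untreated library. The sum itself was 12.04 to 15.98 RPKM in responders, 7.32 to 12.3 RPKM in non-responders and 12.6 RPKM in the untreated library. Of the others Fzd1 was the most abundant (1.38 RPKM) and Fzd6 next (0.611 RPKM), while Fzd2, Fzd3, Fzd9 and Fzd10 each averaged under 0.05 RPKM over the treated libraries.

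**Figure D2:**
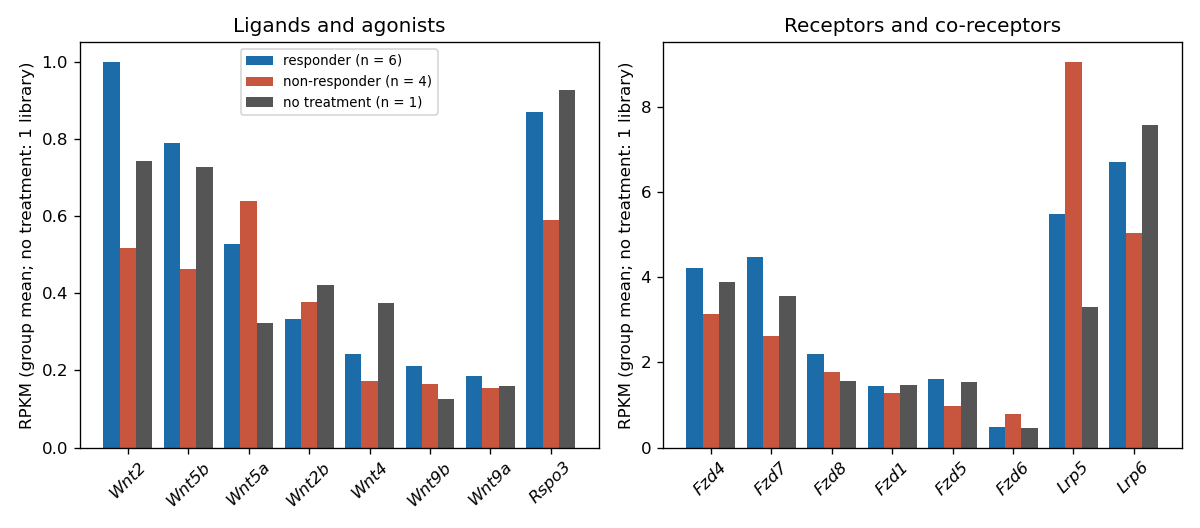
Mean RPKM of the more abundant Wnt, R-spondin, Frizzled and LRP5/6 genes in responders and non-responders, with the value of the untreated library. Wnt2 leads the Wnt genes in responders and Wnt5a in non-responders, Rspo3 is the main R-spondin, and Fzd4 and Fzd7 lead the receptors.

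Fzd5, a receptor needed for maturation of Paneth cells in the mouse gut (chr1:64730558-64737751, minus strand), was higher in responders. It had 13.3, 17.1 and 19.7 CPM in responders (lowest, median and highest), against 7.05, 9.85, 10.3 and 11.2 CPM in non-responders and 16.8 CPM in the untreated library. Every responder was above every non-responder, and the untreated library lay among the responders. The means were 16.5 ± 2.43 CPM in responders (n = 6) and 9.59 ± 1.79 CPM in non-responders (n = 4), a difference of 0.78 ± 0.16 in log2 (SE; adjusted p = 0.0190 in edgeR). The call passed with each of 7 of the 10 treated libraries left out; the adjusted p was 0.0640 without non-responder replicate 2 and 0.0505 without responder replicate 2 or 5, and 0.427 with the title number as a covariate. A gene of unclear status on the other strand, Gm38058, shares 17.8% of the exon bases of Fzd5 and had 692 reads in the treated libraries, against 4662 for Fzd5, so up to that share the reads cannot be assigned.

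Fzd7, a receptor of stem cells in the mouse gut and often described in human HCC (chr1:59482424-59486955, plus strand), was higher in responders too. It had 20.96, 28.95 and 47.3 CPM in responders (lowest, median and highest), against 13.1, 16.3, 16.6 and 20.94 CPM in non-responders and 25.4 CPM in the untreated library. The ranges did not overlap, but responder replicate 4 and non-responder replicate 4 were nearly equal, and responder replicate 1 was far above the rest. The means were 30.5 ± 9.02 CPM in responders (n = 6) and 16.8 ± 3.20 CPM in non-responders (n = 4), a difference of 0.87 ± 0.21 in log2 (SE; adjusted p = 0.0305 in edgeR). It passed with each of 6 of the 10 libraries left out, and the adjusted p was 0.0589 without non-responder replicate 1, 0.0881 without non-responder replicate 2, 0.0648 without responder replicate 2 and 0.0666 without responder replicate 5. With the title number as a covariate it was 0.531. The longest exact stretch that a transcript of Fzd7 shares with another Frizzled gene is 47 bases, with Fzd1.

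The promoters of the Frizzled genes that passed the test are shown because both genes passed as higher in responders. Their order within responders differed, since responder replicate 1 had the highest Fzd7 (47.3 CPM) and the lowest Fzd5 (13.3 CPM). RefSeq windows of the 250 bases before the start of each gene (build GRCm38.p6) were used for Wnt2, Wnt9b, Fzd4, Fzd5 and Fzd7. No window was used for Rspo3, Fzd8, Lrp5 or Lrp6, so nothing is said of their promoters. The starts are those of RefSeq, and for Fzd7 and Wnt2 they differ from the ends of the gene positions given here, so that the Fzd7 window lies apart from the listed gene and most of the Wnt2 window lies inside it. Capitals mark CpG dinucleotides, and each sequence reads 5′ to 3′ on the strand of its gene. The Fzd5 window is chr1:64737751-64738000 on the minus strand and the Fzd7 window is chr1:59481897-59482146 on the plus strand.
Fzd5: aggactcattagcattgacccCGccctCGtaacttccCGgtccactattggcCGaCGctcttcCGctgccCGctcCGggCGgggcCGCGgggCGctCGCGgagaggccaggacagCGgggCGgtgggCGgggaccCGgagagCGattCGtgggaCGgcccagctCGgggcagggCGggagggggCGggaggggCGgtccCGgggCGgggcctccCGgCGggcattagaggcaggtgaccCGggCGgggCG
Fzd7: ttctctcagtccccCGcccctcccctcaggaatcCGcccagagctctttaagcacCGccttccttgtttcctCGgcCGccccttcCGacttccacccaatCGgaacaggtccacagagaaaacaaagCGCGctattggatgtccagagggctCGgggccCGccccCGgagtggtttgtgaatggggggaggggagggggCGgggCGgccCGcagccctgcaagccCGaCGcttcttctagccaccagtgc

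Both windows are rich in CpG. Fzd5 holds 32 CpG with a GC content of 76.4% and an observed over expected CpG ratio of 0.908, and Fzd7 holds 17 CpG with 65.2% GC and a ratio of 0.649, whereas the medians over 32851 windows of this length are 52.4% GC and a ratio of 0.374. The TCF/LEF core words CTTTGAT and CTTTGTT were searched on both strands. Fzd7 holds 1 CTTTGTT and no CTTTGAT, and Fzd5 holds neither word; over all windows 3.21% hold CTTTGAT and 5.03% hold CTTTGTT. A match is a description of letters in the window and not a binding site. The windows of Wnt2, Wnt9b and Fzd4, which did not pass the test, hold neither word. They are rich in CpG too, at 72.8% GC and a ratio of 0.755 for Fzd4 and 72% and 0.679 for Wnt9b. The Wnt2 window has 63.6% GC and a ratio of 0.791, so the trait is not particular to Fzd5 and Fzd7.

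Fzd4, the receptor of norrin on endothelial cells (chr7:89404366-89410110, plus strand), did not pass. Responders had 15.04, 24.6 and 27.7 CPM (lowest, median and highest), non-responders 4.47, 17.1, 20.5 and 24.3 CPM, and the untreated library 22.6 CPM. Non-responder replicate 1 was far below all other libraries, and the other non-responders lay within the responder range. The difference was 0.47 ± 0.36 in log2 (SE; adjusted p = 0.439 in edgeR), and 0.16 (adjusted p = 0.642) without that library. Tspan12, whose product assists FZD4 and which was the most abundant of the other receptor genes, averaged 147 CPM in responders and 149 CPM in non-responders. The listed Fzd4 gene has 3685 bases and ends at 89410110, whereas GENCODE M21 gives 6720 exon bases and an end at 89413134. Reads from the missing 3′ stretch lie outside the listed gene. What this contributes to the low value of non-responder replicate 1, whose reads of other members lay toward the 3′ end, was not tested.

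Fzd8, which in mouse binds several Wnt proteins that signal through β-catenin, did not pass either. Responders had 7.48, 11.2 and 13.99 CPM (lowest, median and highest), non-responders 6.98, 7.49, 7.70 and 11.7 CPM, and the untreated library 8.29 CPM. The groups overlapped, with non-responder replicate 3 above the responder median. The listed length of Fzd8, 3346 bases, is also shorter than its 5974 exon bases in GENCODE M21. In log2 the difference was 0.38 ± 0.20 (SE; adjusted p = 0.248 in edgeR).

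**Figure D3:**
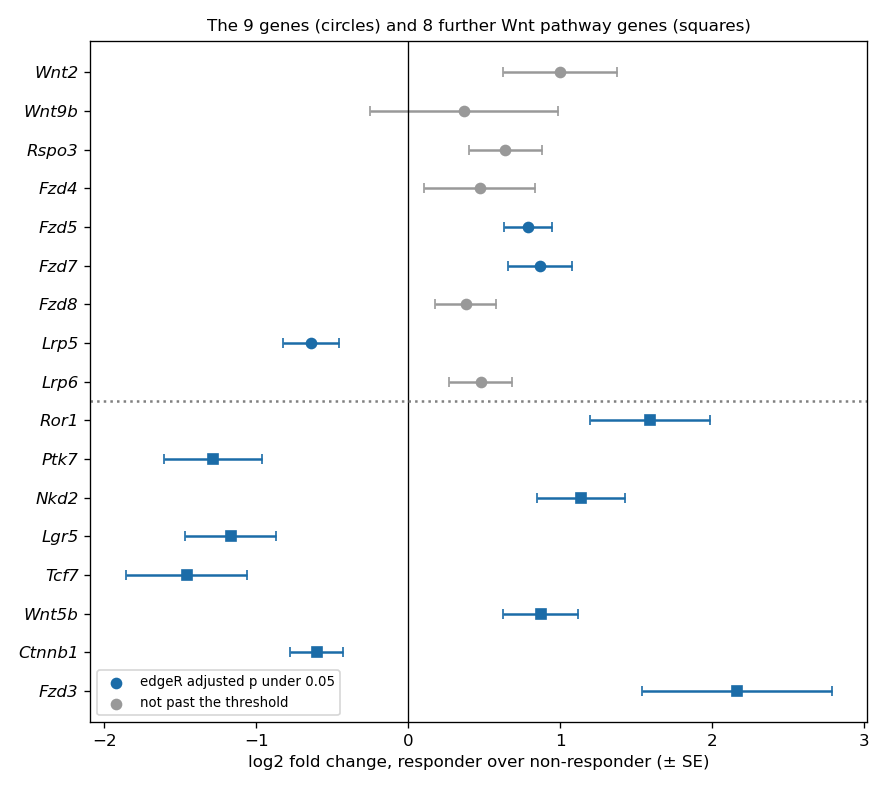
Log2 fold change of responders over non-responders (± SE) for the 9 genes and for the 8 other Wnt pathway genes past an adjusted p of 0.05. Fzd5 and Fzd7 lie to the right of 0, Lrp5 lies to the left, and the intervals of Wnt9b and Fzd4 are wide.

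Lrp5, one of the paired co-receptors (chr19:3584828-3686564, minus strand), was the member with a lower level in responders. It had 60.02, 75.8 and 105.6 CPM in responders (lowest, median and highest), against 86.03, 115.6, 133.7 and 156.4 CPM in non-responders and 50.8 CPM in the untreated library. The ranges overlapped, since responder replicates 1 and 4 were above non-responder replicate 3, and the untreated library lay below all treated libraries. The means were 78.9 ± 15.98 CPM in responders (n = 6) and 122.9 ± 29.7 CPM in non-responders (n = 4). The difference was -0.64 ± 0.18 in log2 (SE), and the edgeR adjusted p of 0.0495 was just under the threshold.

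This call held with only 2 of the 10 libraries left out, responder replicate 4 (adjusted p = 0.0281) and non-responder replicate 3 (0.0231), and the other 8 gave edgeR adjusted p-values of up to 0.162. Without non-responder replicate 2, which had the highest level, the log2 fold change was -0.49, and without non-responder replicate 1 it was -0.60 (adjusted p = 0.0849). When the title number was a covariate, the edgeR adjusted p was 0.466 and the log2 fold change -0.71 ± 0.31 (SE). The direction was negative in all 23 alternatives run, though a threshold of 0.10 reused the main fit and could not change it.

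Lrp6, the other co-receptor (chr6:134446476-134566965, minus strand), showed the opposite sign. Responders had 74.1, 103.9 and 113.2 CPM (lowest, median and highest), against 38.7, 77.4, 79.05 and 86.1 CPM in non-responders and 117 CPM in the untreated library. Responder replicates 1, 2, 3 and 5 were above every non-responder, responder replicates 4 and 6 lay among them, and the untreated library was above all treated libraries. In log2 the difference was 0.48 ± 0.21 (SE), which missed the threshold in edgeR (adjusted p = 0.164), and it was 0.27 (adjusted p = 0.193) without non-responder replicate 1. Lrp5 and Lrp6 share exact stretches of at most 22 bases.

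Exon counts gave the same signs along both co-receptors. Over 23 exons of 1 Lrp5 transcript, the responder mean was lower in 23, at 0.425 to 0.797 of the non-responder mean, and it was lower in all 23 without non-responder replicate 1. Over 23 exons of Lrp6 the responder mean was higher in 23, at 1.21 to 1.94 times the non-responder mean, and at 1.005 to 1.53 times without that library. Exons of a gene share their libraries and are not replicates.

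In non-responder replicate 1 the log2 ratio of read density between the 3′ and 5′ parts of the exons was 1.11 for Lrp5 and 1.09 for Lrp6, against -0.30 to -0.04 and -0.87 to -0.41 in the other treated libraries. Its Lrp5 reads in the 5′ part came to 49.4 CPM, inside the 38.7 to 98.2 CPM of the other treated libraries, whereas those in the 3′ part came to 104 CPM, above their 32.9 to 85.9 CPM. The same library had a ratio of 2.20 for Fzd5 (0.14 to 1.13 elsewhere) and of 0.55 for Wnt2 (-1.47 to 0.01 elsewhere).

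**Figure D4:**
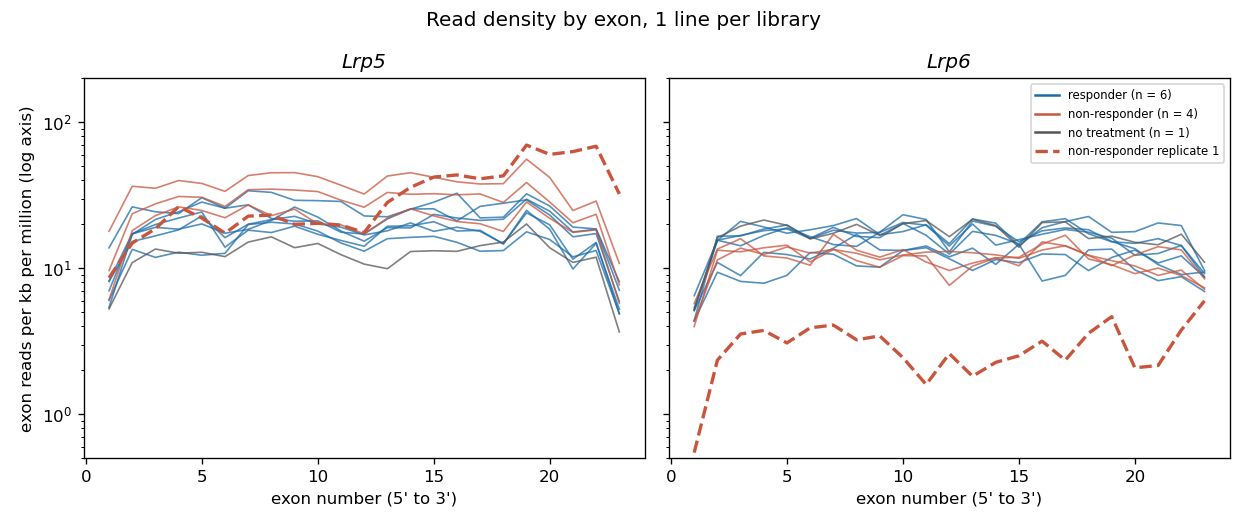
Exon read density (reads per length, scaled to library size) along the 23 exons of Lrp5 and of Lrp6, with 1 line per library on a log axis. Responder lines lie mostly under the non-responder lines for Lrp5 and mostly above them for Lrp6, with overlap, and the dashed line of non-responder replicate 1 climbs toward the 3′ end of Lrp5 and lies under all others for Lrp6.

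**Figure D5:**
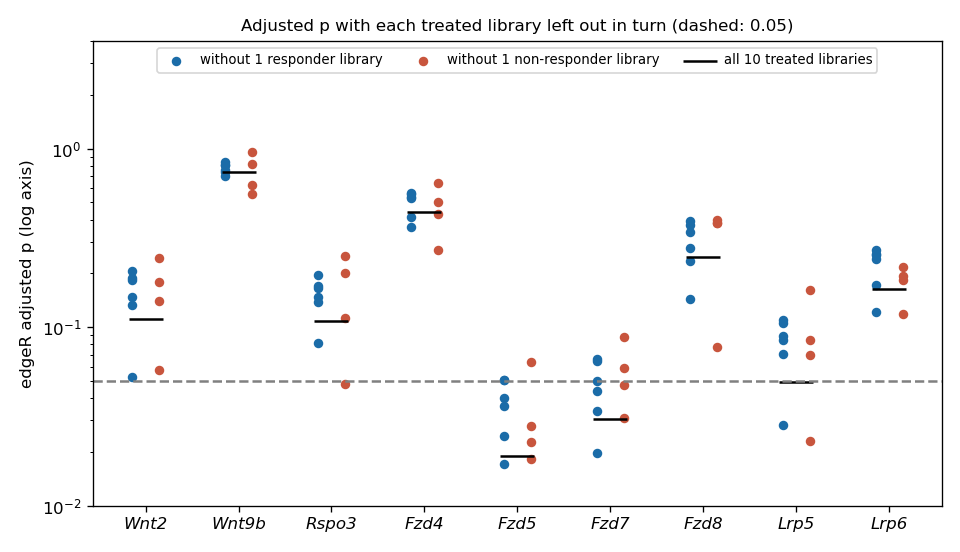
edgeR adjusted p of each of the 9 genes with all 10 treated libraries and with each left out in turn, on a log axis with the threshold of 0.05 dashed. Points of Fzd5, Fzd7 and Lrp5 fall on both sides of the line, and Rspo3 crosses it once.

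The untreated library allows no test. It lay outside the range of the 10 treated libraries for 2 of the 9 genes, Lrp5 (below) and Lrp6 (above), against 16.1% of all tested genes. For Fzd5, Fzd7, Rspo3 and Wnt2 it lay above or between the means of the groups, with Rspo3 at 3.50 CPM higher than the responder mean.

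The genes whose profile over the 10 treated libraries was most like each member were listed by the root mean square difference of library-centred log2 CPM among 11423 genes. For Fzd5 these were Med12l (0.116), Gid4 (0.149) and Lipg (0.156), against a median of 0.504 over all candidates. For Fzd7 they were Cth (0.158), Cmbl (0.183) and Mreg (0.183), with a median of 0.565. For Lrp5 they were Tnfaip8l1 (0.105), Slc41a2 (0.135) and Tstd1 (0.140), with a median of 0.501. For the ligands the nearest genes were Add3 (0.273), Avl9 (0.273) and Sdr9c7 (0.282) for Wnt2, and Proca1 (0.197), Pllp (0.198) and Cdhr5 (0.211) for Rspo3. The profile of Wnt9b was set by its 0 in non-responder replicate 1, and Mup11, Mup9 and Mup14, urinary protein genes with near-identical copies, came nearest (0.288, 0.411 and 0.444).

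Of 86 other genes of the pathway, 54 had enough reads to be tested, and 4 passed as higher, 4 as lower and 46 did not pass, with a median log2 fold change of -0.01. Over all genes tested 4.11% passed as higher and 5.82% as lower. Among 17 other Wnt ligand genes 5 were tested and 1 passed, Wnt5b, a ligand usually placed in β-catenin-independent signalling, with 1.88, 3.28 and 4.22 CPM in responders (lowest, median and highest) and 1.46 to 2.10 CPM in non-responders. The difference was 0.87 ± 0.25 in log2 (adjusted p = 0.0476 in edgeR). Of 4 other agonist genes none had enough reads. Of 16 other receptor genes 11 were tested, with 2 higher and 2 lower.

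Those 4 receptor genes differ in role. Ror1, a receptor kinase of Wnt5 ligands, averaged 4.08 ± 1.44 CPM in responders and 1.34 ± 0.66 CPM in non-responders (log2 fold change 1.59 ± 0.39, edgeR adjusted p = 0.0317). Fzd3 passed on 72 reads in responders and 12 in non-responders (2.16 ± 0.62, adjusted p = 0.0498 in edgeR). Lgr5, an R-spondin receptor gene and itself a β-catenin target, averaged 10.2 ± 4.16 CPM in responders and 22.9 ± 7.17 CPM in non-responders (-1.17 ± 0.30, edgeR adjusted p = 0.0346). Lgr4, another LGR gene, did not pass and had the opposite sign (0.46 ± 0.19, edgeR adjusted p = 0.144). Over the treated libraries Lgr4 averaged 5.61 RPKM and Lgr5 1.03 RPKM. Ptk7, a pseudokinase co-receptor, was lower in every responder than in any non-responder (-1.28 ± 0.32, edgeR adjusted p = 0.0324).

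Downstream, 1 of 17 cytoplasmic genes passed as higher and 1 as lower, and 1 of 9 nuclear genes as lower. Nkd2, which binds Dishevelled and dampens the signal, was higher by 1.14 ± 0.29 in log2 (adjusted p = 0.0337 in edgeR) on 91 reads in responders and 30 in non-responders. Ctnnb1, which encodes β-catenin, averaged 332 ± 38.6 CPM in responders and 504 ± 132 CPM in non-responders (-0.60 ± 0.17, edgeR adjusted p = 0.0476), and reads of the introduced β-catenin cannot be told apart from those of the mouse gene in these counts. Tcf7, a TCF/LEF factor and a known β-catenin target, averaged 8.56 ± 5.19 CPM in responders and 23.5 ± 7.10 CPM in non-responders (-1.46 ± 0.40, edgeR adjusted p = 0.0437). Bcl9l, a β-catenin coactivator, averaged 49.8 CPM in responders and 50.01 CPM in non-responders.

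Secretion, turnover and inhibitor genes gave no call. Both secretion genes were tested, and Porcn, the acyltransferase that lipidates Wnt proteins, differed by 0.25 ± 0.24 in log2 (adjusted p = 0.531 in edgeR). Rnf43, one of the ligases that R-spondins restrain, averaged 46.7 CPM in responders and 97.4 CPM in non-responders without overlap, and did not pass in edgeR (-1.06 ± 0.34, adjusted p = 0.0679). Of 19 extracellular inhibitor genes 8 were tested and none passed; Notum, which strips the lipid from Wnt proteins, averaged 49.1 CPM in responders and 71.5 CPM in non-responders (-0.54 ± 0.20, edgeR adjusted p = 0.0993). All 8 calls on pathway genes other than the members were lost without non-responder replicate 2, and so were both Frizzled calls and the Lrp5 call. The same 8 pathway calls were also all lost without responder replicate 1, 2, 3 or 5, each left out alone. Without non-responder replicate 1, 1 pathway gene passed as higher and 2 as lower.

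Of 20 perivenous and target genes, genes known to respond to this signal in the liver, 1 passed as higher in responders and 4 as lower, with a median log2 fold change of -0.83. The shares over all genes tested were 4.11% higher and 5.82% lower. Cyp27a1, a bile acid synthesis enzyme, was the higher one (0.62 ± 0.15, edgeR adjusted p = 0.0298). The lower ones were Slc1a4, an amino acid transporter (-2.37 ± 0.52, edgeR adjusted p = 0.0241), Avpr1a, the vasopressin receptor (-1.13 ± 0.28, 0.0309), Rhbg, an ammonia transporter (-1.50 ± 0.39, 0.0357), and Lgr5. All 5 calls were lost without non-responder replicate 2, with edgeR adjusted p-values of 0.0709 (Rhbg), 0.0762 (Slc1a4), 0.0884 (Cyp27a1), 0.104 (Avpr1a) and 0.108 (Lgr5). With each of the 10 treated libraries left out in turn, they passed in 2 (Rhbg) to 6 (Slc1a4 and Cyp27a1) of the fits. These genes are shown beside the ligands and receptors as levels in the same libraries, and no relation between them was tested.

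Hepatocyte markers, whose sum did not overlap between the groups, also split among themselves, with 6 of 10 positive values and a median of 0.43. In edgeR 2 were higher, the urea cycle gene Cps1 (1.59 ± 0.45, adjusted p = 0.0462) and the tyrosine aminotransferase gene Tat (1.25 ± 0.33, adjusted p = 0.0367), and 2 were lower, Ahsg (-1.04 ± 0.21, adjusted p = 0.0194) and Apoa1 (-1.11 ± 0.25, adjusted p = 0.0248). Most of the sum was Alb, the albumin gene, at 56689 CPM in responders and 85756 CPM in non-responders. Of 5 fetal and tumour markers 1 passed as lower, Igf2 (-3.35 ± 0.82, edgeR adjusted p = 0.0322); Afp was 1.38 to 2.28 CPM in responder replicates 1, 2, 3 and 5, 121.6 CPM in replicate 4 and 99.8 CPM in replicate 6, against 116.4 to 381 CPM in non-responders and 1.70 CPM in the untreated library. Responder replicates 4 and 6, which carried Afp, had Lrp5 at 105.6 and 80.1 CPM and Lrp6 at 74.1 and 85.1 CPM. In responder replicates 1, 2, 3 and 5 Lrp5 was 86.8, 69.6, 71.4 and 60.0 CPM, so replicate 1 lay above replicate 6. Lrp6 was 106.7, 113.2, 103.0 and 104.7 CPM in those 4 libraries, and no relation to Afp was tested. No cholangiocyte, Kupffer cell or lymphocyte marker passed, out of 5, 6 and 7. For the marker counts here and above, the shares over all genes tested were 4.11% higher and 5.82% lower. The marker calls of Lyve1, Bmp2, Cd34, Ngfr, Hgf, Ahsg, Apoa1 and Igf2 were lost without non-responder replicate 2, at edgeR adjusted p-values of 0.0557 (Lyve1) to 0.123 (Cd34). With each of the 10 treated libraries left out in turn, they passed in 4 (Bmp2, Cd34 and Igf2) to 9 (Lyve1) of the fits. Marker sums of the cell types with no call were 17.4 to 25.9 CPM in responders and 25.6 to 69.8 CPM in non-responders for cholangiocytes, 119.7 to 427.8 CPM in responders and 39.1 to 294 CPM in non-responders for Kupffer cells, and 5.19 to 8.36 CPM in responders and 4.58 to 14.1 CPM in non-responders for lymphocytes. The untreated library had 18.8, 184 and 4.95 CPM in that order. With the title number as a covariate, edgeR called 1 gene in all, and none of the 9 or of the other pathway genes.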

How the data were processed

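Liver RNA was taken up in TRIzol for TruSeq libraries, per the labels' protocols. FastQC and build mm10 are named in the submitters' processing notes, while aligner, counter, annotation release and strandedness were not given in the sources used here. Per the file headers, the authors deposited raw counts of genes and of the exons of their transcripts, and an RPKM value per kilobase of the listed gene length. RPKM was used to compare levels between genes and counts for everything else. The listed length, in bases, belongs to the other deposited columns and was not tested.

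Counts of 6 responder and 4 non-responder libraries were fitted in edgeR 4.0.16 (R 4.3.3; filterByExpr, TMM scaling, robust quasi-likelihood fit, Benjamini-Hochberg adjustment over 17610 genes, threshold 0.05). SEs are log2 fold changes over the square root of their F values, and CPM is TMM-scaled. DESeq2 1.42.0 and limma 3.58.1 were alternatives. Ratios to marker sums used log2 of CPM plus 0.05 over the sum and an exact permutation test (scipy 1.17.1). Exon profiles used 1 transcript per gene, the densest in reads among those with most exon reads; the 3′ part is the exons whose middle lies past the middle of the exon length. Gene overlaps used GENCODE M21, and profile likeness a prior count of 2 in log2 CPM, over genes at an average log2 CPM of at least 1, without Gm-number and Rik symbols. The scripts were tested on simulated data.

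The 9 members and the gene lists were chosen with earlier results of these data known. Other genes named are, by a set rule, those of the pathway and target lists past the threshold, the most abundant of each pathway list, the 2 markers with the smallest p of each marker list where the text speaks of that list, and the 3 genes nearest to each ligand and each member past the threshold. Afp, Alb, Col1a1, Acta2, Cps1, Tat, Lgr4 and Pecam1 are named outside that rule, all but Pecam1 chosen after their values were seen, as are other Wnt and Frizzled genes named for their level. Floors cover counting error only. Replicate numbers follow accession order and pair nothing.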

Additional observations from a re-analysis of the deposited data

Results flagged for a closer look

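A library far from the rest of its group was found in 8 of 92 groups looked at (a gene or ratio within responders or within non-responders), where chance gives about 1 in 20 groups. Among the 9 genes this was Fzd8, for which non-responder replicate 3 had 11.7 CPM and the nearest other non-responder 7.70 CPM. The log2 ratio of Wnt9b to the sinusoidal endothelial markers was -12.9 in non-responder replicate 1, the library with 0 reads of Wnt9b, and -9.38 in the nearest one.

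Among other genes, non-responder replicate 2 was high for Slc1a4 (99.6 CPM, nearest 53.04 CPM), for Efnb2, a marker of arterial endothelium (6.26 CPM, nearest 4.54 CPM), and for Spp1, a cholangiocyte and tumour marker (66.4 CPM, nearest 26.8 CPM). Non-responder replicate 1 was low for the Kupffer cell gene Clec4f (21.9 CPM, nearest 98.4 CPM). Responder replicate 4 was high for Rhbg (26.2 CPM, nearest 12.04 CPM), and responder replicate 6 for the fetal transcript H19 (13.4 CPM, nearest 2.79 CPM).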

How the results depend on the processing

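The signs of the log2 fold changes of Wnt2, Rspo3, Fzd4, Fzd5, Fzd7, Fzd8, Lrp5 and Lrp6 were the same in all 23 alternatives. Among these, the threshold of 0.10 reused the main fit and could not change a sign. The calls were less stable, and the causes were not tested. Leaving out 1 library at a time gave 0 to 3 of the 9 genes higher and 0 to 1 lower, 38 to 836 genes higher and 41 to 1158 lower over the whole table, and 0 to 4 higher and 0 to 9 lower among the other pathway genes. Of the 9, none was lower with library size only, no filter, limma-voom, exon sums or the untreated library as its own group, since Lrp5 then had adjusted p-values of 0.0510 to 0.0601, and 4 were higher in DESeq2. With the title number as a covariate 0 of the 9 and 0 pathway genes passed in either direction, 0 genes were higher and 1 lower over the table. Over all genes DESeq2 called 1396 higher and 1661 lower, limma-voom with quality weights 1621 and 2021, and a threshold of 0.10 1372 and 1808. Pathway calls were 1 higher and 1 lower with no filter, 2 and 2 with exon sums, 2 higher with a CPM filter, 9 and 12 with quality weights, and 7 lower at a threshold of 0.10. Without non-responder replicates 1 and 2 together, a setting chosen after seeing the data, 41 genes were higher and 57 lower, 0 of the 9 and 0 pathway genes in either direction; the log2 fold changes were 0.62 for Fzd5, 0.71 for Fzd7 and -0.36 for Lrp5.

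The log2 fold change of Wnt9b turned negative with quality weights (-0.13), without non-responder replicate 1 (-0.026) and without replicates 1 and 2 (-0.25). Ratios to endothelial markers ranged over single left-out libraries from 0.417 to 0.710 for Wnt2, from -0.265 (without non-responder replicate 1) to 1.10 for Wnt9b, and from -0.0707 (without non-responder replicate 3; -0.0412 without replicate 2) to 0.475 for Rspo3. Against Pecam1 alone, which was lower on average in responders, the differences were 1.35 for Wnt2 and 0.957 for Rspo3, and against the stellate list 1.30 and 0.907. Against the vascular endothelial list they were 1.33 and 0.939 and missed the threshold. No paired analysis was possible because the labels give no replicate numbers. Ligand values rest on 20 to 142 reads of Wnt2 and 0 to 76 of Wnt9b a library, which limits how small a change could be seen.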

Other observations

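The ratio of Lrp5 to Lrp6 within a library, in RPKM, was examined after the values of both genes had been seen and is given without a test. It was 0.821, 0.621, 0.699, 1.44, 0.578 and 0.949 in responder replicates 1 to 6, 3.48, 1.996, 1.01 and 1.51 in non-responder replicates 1 to 4, and 0.437 in the untreated library. By this measure Lrp5 exceeded Lrp6 in all 4 non-responders and in responder replicate 4 only among responders. In non-responder replicate 3 the genes were level, with 3352 reads of Lrp5 and 3354 of Lrp6. Their order in that library therefore rests on the listed lengths.

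Among Wnt genes that are known mainly for β-catenin-independent signals, Wnt5a and Wnt5b had levels near that of Wnt2 per length. Wnt5a averaged 0.572 RPKM in treated libraries and differed by -0.23 ± 0.31 in log2 between responders and non-responders (SE; adjusted p = 0.678 in edgeR), while Wnt5b averaged 0.660 RPKM. Wnt2b averaged 0.351 RPKM with a difference of -0.07 ± 0.31 (adjusted p = 0.915 in edgeR), and Wnt4 averaged 0.215 RPKM with a difference of 0.60 ± 0.36 (adjusted p = 0.311 in edgeR). Of the 19 Wnt genes, 8 had fewer than 10 reads in all libraries together. Wnt2 and Wnt9b together made up 22.1% to 48.1% of the summed Wnt RPKM in responders, 9.83% to 37.8% in non-responders and 29.8% in the untreated library.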
